A study of Mus musculus with 12 samples.

Results

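The transcripts of 8 genes of ornithine and polyamine metabolism were followed in RNA-seq libraries of mouse kidney. The genes were Oat, Odc1, Azin1, Amd1, Srm, Sms, Sat1 and Smox. They were chosen by symbol among the 24421 gene symbols of the deposited matrices, with earlier results of these data known, and the 8 were found. 5 of them had a single RefSeq transcript, and for Sat1 (2 transcripts), Azin1 (4) and Smox (9) the transcript with the highest total count was used.

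All 12 mice were labelled C57BL/6 (C57BL/6J for the Tet2 line in the study's methods) and were males 6 weeks old, and each gave 1 library of whole kidney. WT and Tet2-/- mice were taken without an operation (WT baseline and Tet2-/- baseline) or after ischemia-reperfusion (WT IR and Tet2-/- IR), with 3 mice in each of the 4 groups. In IR mice the right renal pedicle was clamped for 60 min, the left kidney was taken out, and the right kidney was collected 24 h later. Tet2-/- mice lack Tet2, a dioxygenase that oxidizes 5-methylcytosine in DNA, in the whole animal and not in the kidney alone. Libraries of sham-operated mice were not analysed here, so a difference between IR and baseline also holds the surgery and the loss of the other kidney. In whole tissue, fewer cells of a type and less RNA per cell cannot be told apart.

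Ornithine, an amino acid derived from arginine, is either passed on to glutamate and proline by ornithine aminotransferase (Oat) or decarboxylated to putrescine by ornithine decarboxylase (Odc1), the rate-limiting step of polyamine synthesis. Aminopropyl groups derived from S-adenosylmethionine by Amd1 are then added by spermidine synthase (Srm) and spermine synthase (Sms). The way back runs through the acetyltransferase Sat1 and through spermine oxidase (Smox), which forms spermidine, hydrogen peroxide and an aldehyde. The kidney makes arginine in the proximal tubule and in male mice carries an Odc1 level that depends on androgen.

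The 2 genes with the largest differences between IR and baseline were Odc1 and Smox, and the 250 bases upstream of their transcript starts are shown because these windows differ in base composition and in the motifs they hold. They were read 5′ to 3′ on the strand of the gene from mm9, the build of the files, at chr12:17551429-17551678, plus strand (Odc1), and chr2:131317348-131317597, plus strand (Smox). Capitals mark GGGCGG, the GC box, on either strand (it reads CCGCCC when it lies on the other strand) and TGACNNNGC, the core of the antioxidant response element.
Odc1: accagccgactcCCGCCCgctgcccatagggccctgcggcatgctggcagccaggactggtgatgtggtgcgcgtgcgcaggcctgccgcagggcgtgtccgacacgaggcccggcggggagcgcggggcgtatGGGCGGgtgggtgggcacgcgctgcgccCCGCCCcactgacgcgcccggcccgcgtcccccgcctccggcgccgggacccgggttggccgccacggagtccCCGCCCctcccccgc
Smox: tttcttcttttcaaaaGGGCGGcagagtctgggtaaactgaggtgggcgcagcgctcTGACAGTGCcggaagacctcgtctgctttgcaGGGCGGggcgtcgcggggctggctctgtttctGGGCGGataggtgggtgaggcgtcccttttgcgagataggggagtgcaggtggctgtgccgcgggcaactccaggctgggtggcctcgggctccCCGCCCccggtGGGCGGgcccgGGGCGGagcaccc
The Odc1 window was 80.0% G and C and held GGGCGG 4 times, and the Smox window was 68.0% G and C and held it 6 times. Over the 8 genes the median was 69.6%, against 55.2% over 24351 windows of the same length upstream of all genes. GGGCGG occurred in 7 of the 8 windows (87.5%, absent from that of Oat) and in 41.5% of all windows. CACGTG, the E-box bound by Myc, occurred in the Srm window alone (6.6% of all windows), with its first base 182 bases before the start. TATAAA occurred in the Azin1 window alone (2921 of the 24351 windows), and TGACNNNGC in the Smox window alone (10.6% of all windows). None of these motifs overlapped another in the windows printed here. A match is a description of the letters and not a bound site.

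Total counts per library on the transcripts used ran from 51007366 to 107969888. Levels are given as FPKM, the deposited count scaled to transcript length and library size, and all p values come from the counts. Tet2 itself read 9.15, 6.25 and 7.33 FPKM in WT baseline and 9.24, 16.6 and 10.3 FPKM in Tet2-/- baseline libraries, then 9.34, 3.97 and 3.86 FPKM in WT IR and 2.64, 3.20 and 1.76 FPKM in Tet2-/- IR libraries. The transcript was thus not lower in the baseline libraries labelled Tet2-/-. The value covers the whole transcript, and the sources used here do not give the deleted exons, so it does not check the labels. Kidney identity was plain in all 12 libraries, with a summed level of the 8 markers of proximal tubule segments S1 and S2 between 443 and 2420 FPKM. The summed level of the 10 tubular injury genes (Havcr1, Lcn2 and others) was 289 to 595 FPKM at baseline, 1814 to 8128 FPKM in WT IR and 12554 to 26509 FPKM in Tet2-/- IR libraries, and WT IR replicate 1 was the lowest of the IR libraries.

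**Figure D1:**
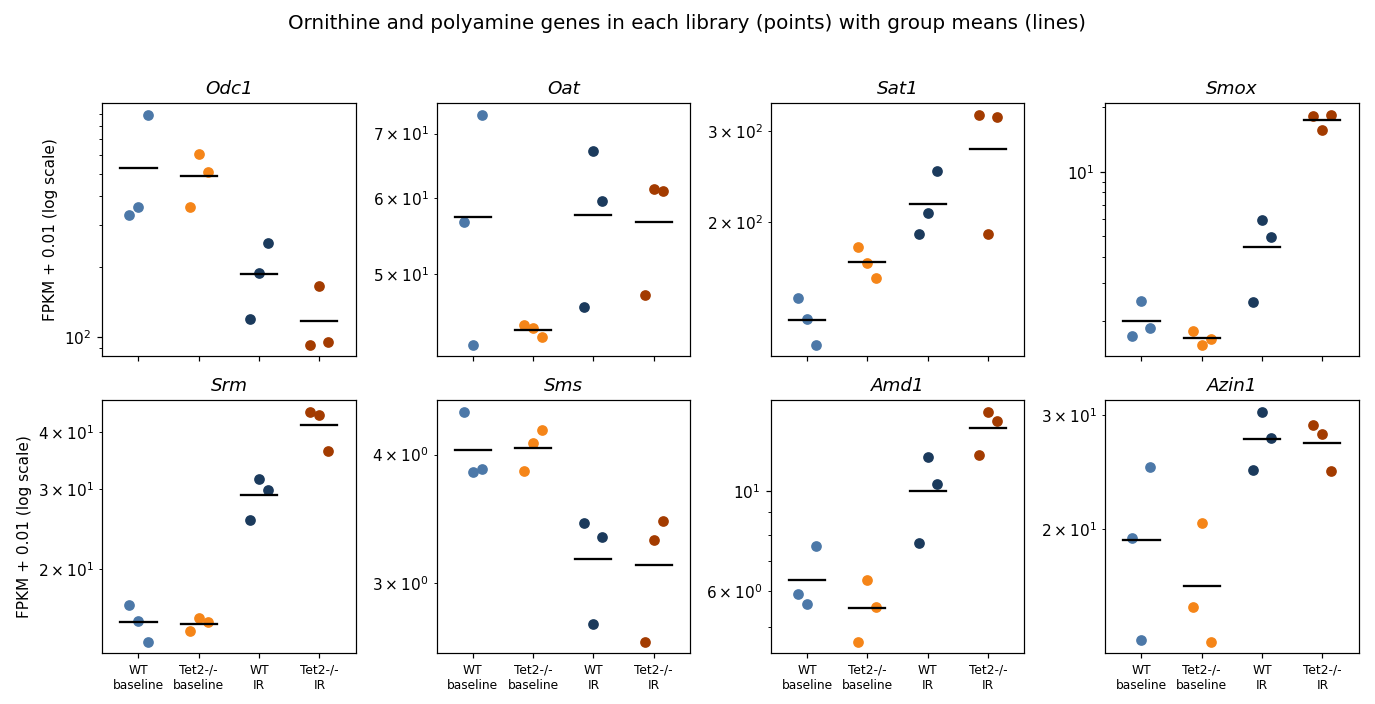
FPKM plus 0.01 of the 8 genes on log axes, 1 panel a gene, with 1 point per library and a line at the mean of each group of 3. Srm, Sat1 and, by a small margin, Amd1 were higher and Odc1 and Sms lower in all WT IR than in all WT baseline libraries, and Smox was highest in Tet2-/- IR libraries (15.7 to 18.5 FPKM).

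Odc1 was the most abundant transcript of the 8 genes in every baseline library and was lower in every IR library than in any of them. In WT baseline libraries Odc1 (chr12:17551679-17558308, plus strand) read 332, 359.5 and 891 FPKM, and in Tet2-/- baseline libraries 358, 604 and 508 FPKM. After IR it read 119.6, 189 and 252 FPKM in WT and 92.9, 165 and 95.4 FPKM in libraries labelled Tet2-/-. WT baseline replicate 3 stood at 2.68 times the lowest library of its group, the widest spread of any member at baseline. In libraries labelled Tet2-/- Odc1 fell 5.05-fold (log2 fold change −2.34 ± 0.30 SE, n = 3 against 3, edgeR quasi-likelihood test with Benjamini-Hochberg adjusted p = 0.000925). In WT it was 2.93-fold lower without a call (−1.55 ± 0.48, edgeR adjusted p = 0.127), and with the replicate number as a block it was called (−1.47 ± 0.20, edgeR adjusted p = 0.0103). DESeq2 also called Odc1 in WT. With a library left out the edgeR difference in WT ran from −1.90 to −0.92, without a call. The interaction gave −0.75 ± 0.59 (edgeR adjusted p = 0.446) and ran from −1.38 to −0.40 with a library left out. The genotypes after IR differed by −0.80 ± 0.35 (edgeR adjusted p = 0.179) with overlapping groups.

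The summed markers of the proximal tubule were lower in the same libraries as Odc1. The 8 markers of segments S1 and S2 summed to 1695 to 2420 FPKM at baseline, 1087 to 1408 FPKM in WT IR and 443 to 695 FPKM in Tet2-/- IR libraries. The 6 markers of segment S3 summed to 999 to 1419 FPKM, 584 to 899 FPKM and 225 to 285 FPKM in these groups. Most of the S1 and S2 sum at baseline was Slc34a1, the phosphate carrier (1463 ± 86.2 FPKM in WT baseline and 651 ± 152 FPKM in WT IR libraries, SD, n = 3), and the single markers did not all follow it. In WT, IR called 0 of the 8 and 2 of the 6 markers lower and none higher by edgeR (0.887% of all genes were called lower), and Slc22a6 read 234 to 253 FPKM at baseline and 377 to 439.6 FPKM after IR. In libraries labelled Tet2-/-, 4 of the 8 and 5 of the 6 were called lower (11.6% of all genes). Kap, an abundant transcript of the proximal tubule that androgen induces, read 30633 to 49842 FPKM at baseline, 20099.8 to 23749 FPKM in WT IR and 13868 to 22443 FPKM in Tet2-/- IR libraries. Of the 9 androgen-induced genes listed, Kap among them, 3 were called lower by IR in WT and 7 in libraries labelled Tet2-/-, and none higher, beside the same shares of all genes. Cyp4a12b, not called, read 5.23 ± 0.508 FPKM in WT baseline and 11.6 ± 4.18 FPKM in WT IR libraries (SD, n = 3). The part of tubule loss or of androgen in the Odc1 level was not tested.

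Azin1, the antizyme inhibitor that shields Odc1 from degradation, was not called in any comparison. It read 19.4, 13.5 and 25.0 FPKM in WT baseline and 15.2, 20.5 and 13.4 FPKM in Tet2-/- baseline libraries. After IR it read 24.7, 30.3 and 27.6 FPKM in WT and 28.9, 28.1 and 24.6 FPKM in libraries labelled Tet2-/-. The IR difference was 0.45 ± 0.24 in WT (edgeR adjusted p = 0.316) and 0.47 ± 0.17 in libraries labelled Tet2-/- (edgeR adjusted p = 0.0577) on the log2 scale. The 2 antizymes Oaz1 and Oaz2, which direct Odc1 to the proteasome, stayed between 38.1 and 58.3 FPKM in all libraries, and neither they nor Oaz3 and Azin2, the other genes of their list, were called in any comparison. The ratio of Odc1 to Azin1 FPKM within a library went from 17.1 to 37.8 at baseline down to 3.21 to 9.11 after IR.

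Srm and Amd1, which act after Odc1 in spermidine synthesis, rose after IR in libraries labelled Tet2-/- and were not called in WT. Srm (chr4:147965622-147968728, plus strand) read 16.7, 15.3 and 13.8 FPKM in WT baseline and 14.6, 15.6 and 15.3 FPKM in Tet2-/- baseline libraries. It read 25.6, 31.5 and 29.9 FPKM in WT IR and 44.2, 43.6 and 36.3 FPKM in Tet2-/- IR libraries, so the IR groups lay above baseline and apart from each other. Srm rose 2.28-fold in libraries labelled Tet2-/- (log2 1.19 ± 0.11 SE, edgeR adjusted p = 0.000304). In WT it passed the adjusted p and not the fold limit (0.87 ± 0.14, edgeR adjusted p = 0.0299). The genotypes after IR differed by 0.41 ± 0.14 (edgeR adjusted p = 0.105) and the interaction was 0.36 ± 0.17 (edgeR adjusted p = 0.195), neither of them called.

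Amd1 (chr10:40007264-40021994, minus strand) read 5.90, 5.62 and 7.56 FPKM in WT baseline, 4.64, 6.34 and 5.52 FPKM in Tet2-/- baseline, 7.67, 11.9 and 10.4 FPKM in WT IR and 12.045, 14.99 and 14.3 FPKM in Tet2-/- IR libraries. All Tet2-/- IR libraries were above the highest baseline library. Amd1 rose 2.09-fold in libraries labelled Tet2-/- (1.07 ± 0.16, edgeR adjusted p = 0.00169), close to the fold limit, and was not called in WT (0.59 ± 0.21, edgeR adjusted p = 0.165). Neither the difference between genotypes after IR (0.36 ± 0.19, edgeR adjusted p = 0.253) nor the interaction (0.52 ± 0.27, edgeR adjusted p = 0.249) was called for Amd1. The Amd2 row of the files covers the same locus and its counts differed from those of Amd1 by at most 1.5, so the pair cannot be told apart and is 1 measurement.

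Sms, which makes spermine, went the other way and was not called anywhere. It read 4.39, 3.84 and 3.86 FPKM in WT baseline, 3.84, 4.10 and 4.21 FPKM in Tet2-/- baseline, 3.42, 2.73 and 3.31 FPKM in WT IR and 2.62, 3.29 and 3.44 FPKM in Tet2-/- IR libraries. Both IR groups lay below their baseline groups. The log2 difference was −0.41 ± 0.16 in WT (edgeR adjusted p = 0.196) and −0.63 ± 0.17 in libraries labelled Tet2-/- (edgeR adjusted p = 0.0188), the latter past the adjusted p and inside the fold limit. Within a library, Srm was 3.59 to 3.995 times as high as Sms by FPKM in all 6 baseline libraries, 7.49 to 11.5 times in WT IR and 10.6 to 16.9 times in Tet2-/- IR libraries.

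Smox was the 1 member called between the genotypes after IR. Smox (chr2:131317598-131350919, plus strand) read 1.70, 2.46 and 1.85 FPKM in WT baseline and 1.79, 1.54 and 1.65 FPKM in Tet2-/- baseline libraries. After IR it read 2.44, 5.93 and 4.91 FPKM in WT and 18.2, 15.7 and 18.5 FPKM in libraries labelled Tet2-/-. The Tet2-/- IR libraries thus all stood above every other library, while WT IR replicate 1, also the lowest for tubular injury genes, lay within the WT baseline range. Smox rose 8.86-fold in libraries labelled Tet2-/- (log2 3.15 ± 0.16 SE, edgeR adjusted p = 4.78e-05), and moved from place 10571 to 3672 in the order of mean FPKM. In WT the difference was 1.09 ± 0.35 without a call (edgeR adjusted p = 0.134). It was called in WT with the replicate number as a block (1.01 ± 0.24, edgeR adjusted p = 0.0480) and without WT IR replicate 1 (1.40 ± 0.22, edgeR adjusted p = 0.0272). DESeq2 and the single fit of all 12 libraries also called Smox in WT.

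Between genotypes after IR, Smox was 3.69-fold higher in libraries labelled Tet2-/- (1.88 ± 0.33, edgeR adjusted p = 0.0206), and the IR difference was larger there than in WT by 2.09 ± 0.40 (interaction over all 12 libraries, edgeR adjusted p = 0.0116). The genotype call was lost without WT IR replicate 3, Tet2-/- IR replicate 1 or Tet2-/- IR replicate 3 (edgeR adjusted p = 0.0531, 0.0634 and 0.0518), with log2 differences of 2.03, 1.85 and 1.79. The summed level of 13 neutrophil markers, carried mainly by S100a8 and S100a9, was highest in the same 3 libraries as Smox, and low markers such as Camp overlapped between groups. Of the 10 tested between genotypes after IR, 8 were called higher and 0 lower, with a median log2 difference of 3.89 (2.3% of all genes were called higher). The sum was 0.721 to 3.28 FPKM in baseline libraries, 4.201 to 9.67 FPKM in WT IR and 76.1 to 135 FPKM in Tet2-/- IR libraries, with Mpo and Elane at 0 in all WT IR libraries. The 12 macrophage markers summed to 40.5 to 82.4 FPKM at baseline, 35.5 to 77.2 FPKM in WT IR and 66.0 to 244 FPKM in Tet2-/- IR libraries, so these groups overlapped. The 6 markers of alternatively activated macrophages summed to 6.63 to 39.1 FPKM in Tet2-/- IR libraries and to at most 4.34 FPKM in any other. Chil3 alone made up most of that sum (5.37 to 37.1 FPKM in Tet2-/- IR libraries), and of the 6, IR in libraries labelled Tet2-/- called 1 higher and 2 lower, with a median log2 difference of −0.32. Between genotypes after IR, 1 of the 5 tested was called higher and 0 lower, with a median log2 difference of 1.66. The 5 glomerular markers summed to 42.9 to 87.8 FPKM in Tet2-/- IR libraries and to at most 26.3 FPKM in any other. The sum of the tubular injury genes, most of it Spp1 (8742 to 21437 FPKM in Tet2-/- IR libraries), was also highest in these 3 libraries. Of the 10 injury genes 1 was called between genotypes after IR, with a median log2 difference of 1.64. Havcr1 (214 to 670.5 FPKM in WT IR and 652 to 1432 FPKM in Tet2-/- IR libraries) and Vcam1 overlapped by FPKM. The other injury genes did not, Lcn2 among them (74.2 to 476 FPKM in WT IR and 908 to 1923 FPKM in Tet2-/- IR libraries). The part of any of these in the Smox level was not tested.

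Sat1 was the second most abundant transcript of the 8 genes at baseline and was not called in any comparison. It read 143, 129.8 and 116 FPKM in WT baseline, 179, 166 and 156 FPKM in Tet2-/- baseline, 189.7, 208 and 250.5 FPKM in WT IR and 322, 189.9 and 319 FPKM in Tet2-/- IR libraries. All IR libraries were above all baseline libraries, with WT IR replicate 1 and Tet2-/- IR replicate 2 the closest to them. The IR difference was 0.69 ± 0.18 in WT (edgeR adjusted p = 0.0878) and 0.49 ± 0.25 in libraries labelled Tet2-/- (edgeR adjusted p = 0.149) on the log2 scale. At baseline Sat1 was higher in each library labelled Tet2-/- than in each WT library, by 0.46 ± 0.12, and this did not pass the adjusted test (edgeR adjusted p = 0.262). Under the alternatives this difference was 0.37 to 0.53, always inside the fold limit. At least 1 of them passed the adjusted p limit, and none with a library left out did.

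Oat had the smallest fitted IR difference of the 8 genes in both genotypes. It read 56.7, 42.2 and 73.2 FPKM in WT baseline, 44.3, 43.9 and 43.0 FPKM in Tet2-/- baseline, 46.3, 67.2 and 59.5 FPKM in WT IR and 47.6, 61.3 and 61.0 FPKM in Tet2-/- IR libraries. Its IR difference was −0.06 ± 0.25 in WT (edgeR adjusted p = 0.915) and 0.12 ± 0.14 in libraries labelled Tet2-/- (edgeR adjusted p = 0.536) on the log2 scale, with the sign changing when single libraries were left out.

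**Figure D2:**
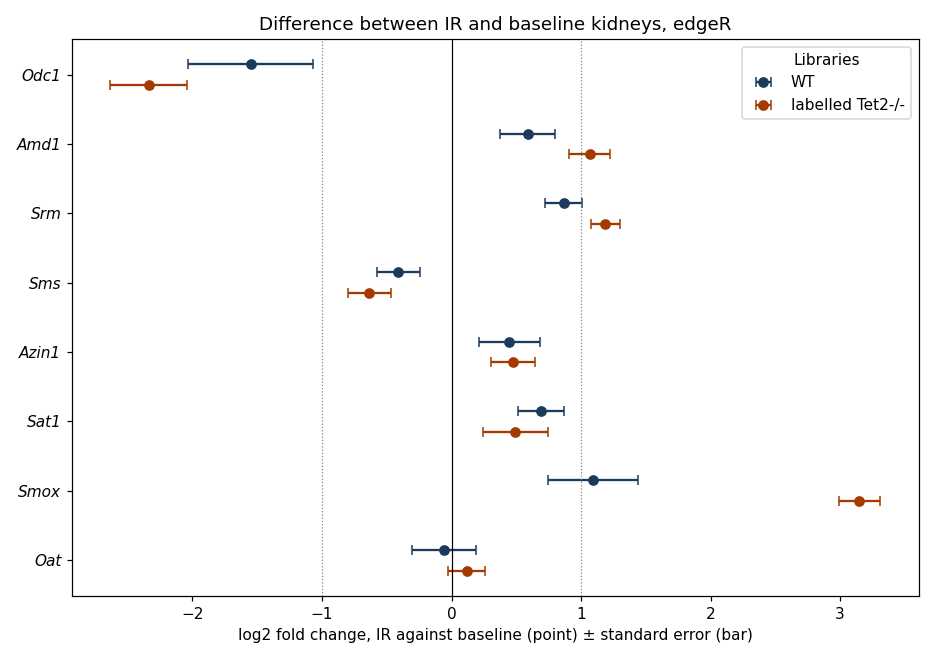
Fitted log2 fold changes between IR and baseline (points) with their standard errors (bars) in WT and in libraries labelled Tet2-/-, with dotted lines at −1 and 1, the fold limit of a call. Smox stands at 1.09 in WT and 3.15 in libraries labelled Tet2-/-, and Odc1 at −1.55 and −2.34.

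Counted over the 8 members, IR against baseline called 0 in WT by edgeR, with 6 at an unadjusted p under 0.05 (22.7% of all genes) and 2 called by DESeq2 (6.13% of all genes), where 2.35% of all genes tested were called by edgeR and 1.46% were called higher. It called 3 higher (Smox, Srm, Amd1) and 1 lower (Odc1) in libraries labelled Tet2-/-, where 24.3% of all genes were called, 12.7% higher and 11.6% lower. With the replicate number as a block, 2 were called in WT (Odc1 and Smox), against 6.16% of all genes. On TMM-scaled counts, which differ a little from FPKM in scaling (by FPKM alone, Sat1 and Oat were apart after IR in libraries labelled Tet2-/-, and Amd1 after IR in WT and between genotypes after IR), IR and baseline groups did not overlap for 2 higher and 2 lower members in WT (14.8 and 14.5% of all genes) and for 4 higher and 2 lower members in libraries labelled Tet2-/- (29.5 and 27.3% of all genes). The median log2 difference of the 8 was 0.52 in WT and 0.48 in libraries labelled Tet2-/-, against −0.03 and 0.04 over all genes tested.

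Between genotypes, none of the 8 was called at baseline, where 0.0124% of all genes were called by edgeR. At baseline 1 of the 8, Sat1, had an unadjusted p under 0.05 by edgeR (11.8% of all genes) and groups that did not overlap (higher, as in 7.93% of all genes), and DESeq2 called none of the 8 (1.99% of all genes). After IR 1 was called (Smox, higher), where 6.15% of all genes were called and 2.3% were called higher, and groups of scaled counts did not overlap for 2 (Smox and Srm, both higher, against 17.5% of all genes). The interaction called 1 (Smox, in the higher direction), against 9.18% of all genes in either direction and 3.79% in that one (634 genes higher and 902 lower, and with library sizes alone 1129 and 700), and with the replicate number as a block it again called Smox alone, against 12.6%. The comparisons share libraries, so their values are set side by side and not counted as separate evidence.

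The ratios of Odc1 to Sat1 and to Smox within a library were lower in every IR library than in any baseline library. Odc1 was 2.33 to 7.70 times as high as Sat1 by FPKM in WT baseline and 2.01 to 3.63 times in Tet2-/- baseline libraries, and the ratio was 0.631 to 1.005 in WT IR and 0.288 to 0.868 in Tet2-/- IR libraries. The Odc1 to Smox ratio was 146 to 483 and 200.2 to 392 at baseline, 31.8 to 51.2 in WT IR and 5.10 to 10.5 in Tet2-/- IR libraries, with no overlap between the genotypes after IR. Odc1 made up 66.3 ± 11.1% (SD, n = 3) of the summed FPKM of the 8 genes in WT baseline, 65.2 ± 6.63% in Tet2-/- baseline, 34.2 ± 5.48% in WT IR and 21.5 ± 8.71% in Tet2-/- IR libraries. With 3 libraries against 3 an exact permutation test, two-sided, cannot go below p = 0.1, and no test of these ratios was run.

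**Figure D3:**
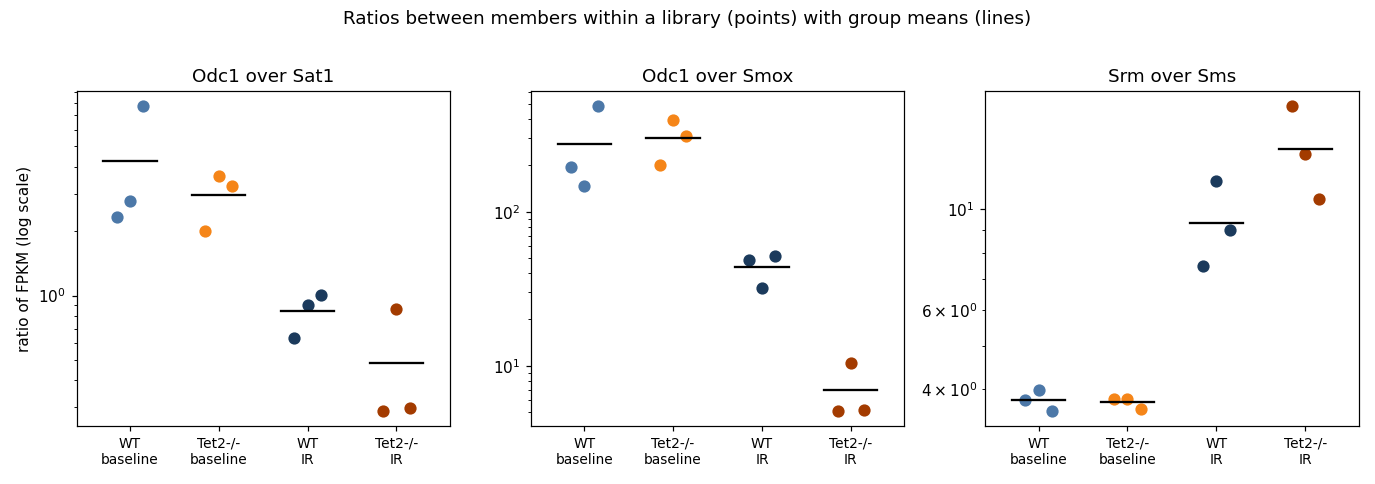
Ratios of FPKM between 2 members in the same library on log axes, with 1 point per library and a line at the mean of each group of 3. Odc1 over Sat1 and Odc1 over Smox were lower, and Srm over Sms higher, in every IR library than in every baseline library.

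The neighbours of the 8 genes were read from 6 lists with 48 genes in the files. In WT, IR called 0 of the 44 tested higher and 1 lower (0.887% of all genes were called lower). This was Ass1, the argininosuccinate synthase that makes the precursor of arginine (254 ± 15.8 FPKM in WT baseline and 82.7 ± 17.4 FPKM in WT IR libraries, SD, n = 3), with a log2 fold change of −1.68 ± 0.16 SE and an edgeR adjusted p of 0.00842. In libraries labelled Tet2-/-, IR called 8 of 45 higher and 10 lower, where 12.7% of all genes were called higher and 11.6% lower. The median log2 difference of the listed genes that were tested was −0.02 in WT and −0.29 in libraries labelled Tet2-/-, against −0.03 and 0.04 over all genes.

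Of the genes of arginine supply and use, 5 of 15 tested fell, 2 rose and 8 were not called after IR in libraries labelled Tet2-/-, against the same 11.6% lower and 12.7% higher over all genes. The creatine synthesis genes Gamt (−3.28 ± 0.17, edgeR adjusted p = 4.78e-05) and Gatm (−2.20 ± 0.55) fell with Ass1 (−2.51 ± 0.38) and with Agmat (−2.51 ± 0.25), annotated as the enzyme that turns agmatine into putrescine. The other genes of this list that passed, chosen after their values were seen, were Slc25a2 (−1.45 ± 0.39), an ornithine carrier, and, both higher, Slc7a1 (1.88 ± 0.37), the main importer of arginine, and Nos3 (1.06 ± 0.24), the endothelial nitric oxide synthase. Slc25a2 was near the floor (0.254 ± 0.0709 FPKM in Tet2-/- baseline and 0.111 ± 0.0235 FPKM in Tet2-/- IR libraries, SD, n = 3). Slc25a15, of the same carrier family and list, was not called (21.4 ± 4.56 and 18.3 ± 2.14 FPKM in these groups). Gamt went from 30.7 ± 2.20 FPKM in Tet2-/- baseline to 3.81 ± 0.882 FPKM in Tet2-/- IR libraries (SD, n = 3). Of the ornithine, proline and glutamate genes, 2 of 6 fell (Aldh4a1, −1.95 ± 0.19, and Prodh2, −1.53 ± 0.48), and Aldh18a1, which starts proline synthesis from glutamate, rose (1.89 ± 0.31). Prodh of the same list was not called (110 ± 19.5 FPKM in Tet2-/- baseline and 69.2 ± 20.4 FPKM in Tet2-/- IR libraries, SD, n = 3).

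Of the genes of polyamine oxidation, acetylation and transport, Sat2 fell (−1.94 ± 0.20), while Slc3a2 (1.35 ± 0.28), a subunit of amino acid transporters, and the polyamine transporter Atp13a3 (1.27 ± 0.22) rose. Of the genes around S-adenosylmethionine, Ahcy (−2.56 ± 0.22), which clears S-adenosylhomocysteine, and Mat2a (−1.26 ± 0.18), which makes S-adenosylmethionine, fell. Mri1 of methylthioadenosine salvage (1.01 ± 0.35) and Amd2, the same measurement as Amd1, rose. In the hypusination list, where spermidine modifies the translation factor eIF5A, Eif5a2 rose (1.34 ± 0.33) and the abundant Eif5a was not called (0.37 ± 0.19, edgeR adjusted p = 0.142).

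Between genotypes, 0 of the 45 listed genes were called at baseline. After IR 3 of 44 were lower in libraries labelled Tet2-/-, namely Gamt (−2.64 ± 0.48, edgeR adjusted p = 0.0226), Agmat (−1.93 ± 0.30, edgeR adjusted p = 0.0160) and Aldh4a1 (−1.52 ± 0.18, edgeR adjusted p = 0.0112), and 0 were higher. Over all genes 3.85% were called lower in that comparison. The interaction called 0 of 45 higher and 8 lower, against 5.39% of all genes in the lower direction. Ass1, Gamt, Gatm and Agmat are genes of the proximal tubule, whose summed markers were lowest in the same libraries, and the part of tubule loss in these values was not tested.

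**Figure D4:**
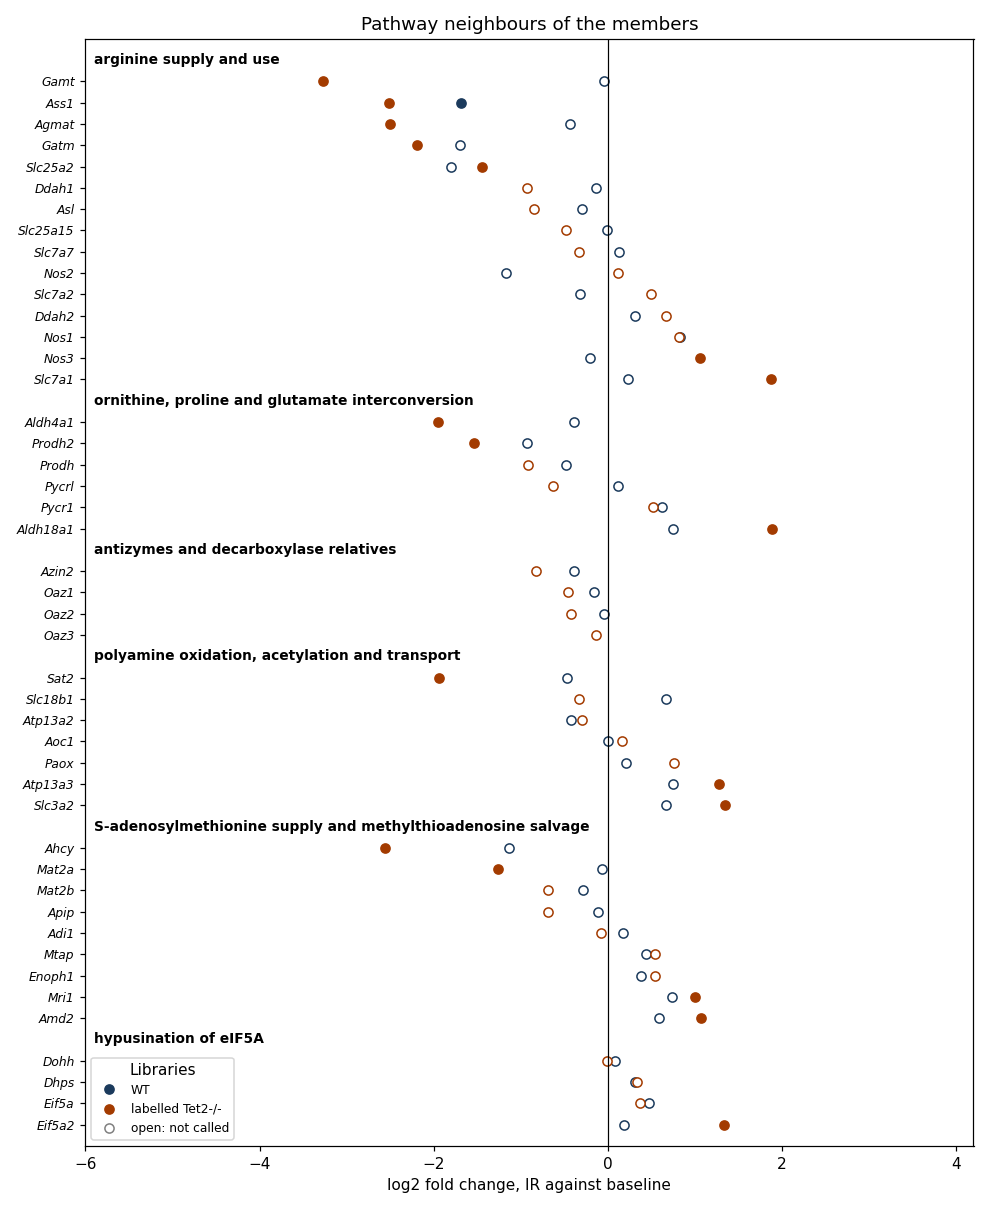
Fitted log2 fold changes between IR and baseline of the pathway genes tested, by list, in WT and in libraries labelled Tet2-/-, with filled points for called genes. In WT Ass1 alone was called, and in libraries labelled Tet2-/- 8 genes lay to the right and 10 to the left among the filled points.

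The genes with the pattern most like that of Odc1 and of Oat over the 12 libraries were sought among 12933 genes by the mean absolute difference of centred log2(FPKM + 1). For Odc1 they were Ugt2b38 (0.32), Smarca2 (0.34), Acsm1 (0.34) and Dnaja1 (0.35), of which Ugt2b38 ran from 146 to 755 FPKM. Odc1 itself varied over a range of 3.25 on that scale. For Oat they were Exoc6 (0.11), Rp2 (0.11), Slc30a5 (0.11) and Zmpste24 (0.11), genes that varied as little as Oat did (a range of 0.78 for Oat).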

How the data were processed

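Total RNA of whole kidneys from 12 mice was sequenced. Reads were aligned by the authors with STAR to mm9 and counted with HOMER per RefSeq transcript. The authors deposited the unnormalized table of these counts and a table of FPKM. Tool versions and any use of strand in counting are not given in the sources used here. The deposited counts rise in steps of 0.5 (38.7% are not whole, where whole counts had been planned for), so they were treated like estimated counts and rounded before each test.

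The 34600 transcripts were reduced to the transcript with the highest total count per symbol. Each comparison was fitted on its own 6 libraries (12 for the interaction) with edgeR 4.0.16 in R 4.3.3, using TMM, the package's low-count filter and its quasi-likelihood F test, and p values were adjusted by Benjamini-Hochberg across every gene that passed the filter. Calls needed an adjusted p under 0.05 together with a log2 fold change beyond 1 in either direction, and in the interaction the adjusted p alone. Standard errors were derived from the F test. The procedure was tested on simulated data. Windows upstream of starts were read from mm9, and 5 of the 8 matched RefSeq windows of GRCm38.p6. Plots were made in Python 3.11.15 (matplotlib 3.10.9).

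The members, pathway lists and marker lists were chosen with earlier results of these data known. Named were all members, Tet2, up to 4 called genes with the largest change per pathway list and IR comparison, the 4 genes nearest in pattern to Odc1 and to Oat out of the genes whose mean FPKM reached 1 in some group, and markers whose levels moved with a member. Outside this rule, and chosen after their values were seen, were Slc25a2, Slc25a15, Slc7a1, Nos3, Prodh, Eif5a, Slc22a6, Cyp4a12b, Vcam1 and the uncalled antizyme list. Some genes of the lists are not reported here.

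Whether replicate numbers pair libraries was checked by correlating the deviations of same-numbered libraries from their group means. Between baseline and IR the correlations were 0.349, 0.349 and 0.344 for WT, and 0.120, 0.350 and 0.202 for libraries labelled Tet2-/-. The mice are different according to the study's methods, so any pairing would rest on these correlations alone. Libraries with different numbers were not correlated for comparison, so a pairing was not established. The value with the replicate number as a block is given where it changes a call. The alternatives were DESeq2 1.42.0, its size factors within edgeR, library sizes alone, no filter, a joint fit of all libraries, limma 3.58.1 on log2 FPKM with a pseudocount of 1 or 0.1, the replicate block, no fold limit, the sum of transcripts, and each library left out.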

Additional observations from a re-analysis of the deposited data

Results flagged for a closer look

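Smox differed between the genotypes in its IR difference. The interaction over all 12 libraries was 2.09 ± 0.40 SE on the log2 scale (edgeR adjusted p = 0.0116), with an IR difference of 1.09 ± 0.35 in WT and 3.15 ± 0.16 in libraries labelled Tet2-/-. Over the 20 alternatives this interaction stayed between 1.79 and 2.32 with adjusted p values of at most 0.0338. No group of 3 libraries was searched for single libraries far from the others.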

How the results depend on the processing

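Of the members' log2 fold changes under the alternatives, 637 kept their direction and their side of the limits, 22 changed sign, 8 passed the limits and 5 no longer did. Of the counts of 8 members, that of IR in WT went from 0 to 2 with DESeq2, to 1 with all 12 libraries in a single fit, to 1 without the fold limit and to 2 with the replicate block, and to 1 without WT IR replicate 1. That of IR in libraries labelled Tet2-/- went from 4 to 5 without the fold limit and to 3 without Tet2-/- baseline replicate 1 or Tet2-/- IR replicate 3. That between genotypes after IR went from 1 to 0 without WT IR replicate 3, Tet2-/- IR replicate 1 or Tet2-/- IR replicate 3, and the interaction called 1 in every alternative. Amd1 was just inside the fold limit in IR against baseline in libraries labelled Tet2-/- without Tet2-/- baseline replicate 1 (0.95) or Tet2-/- IR replicate 3 (0.98). The replicate block changed no other call than those given with the results, and in the genotype comparisons same-numbered libraries did not all deviate together (correlations from −0.17 to 0.052 at baseline and from −0.00023 to 0.30 after IR).

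Every change of sign was in a difference that was not called. Oat in WT was 0.025 and 0.026 with limma on log2(FPKM + 1) and log2(FPKM + 0.1), and −0.22 to 0.17 with a library left out. Oat in libraries labelled Tet2-/- ran from −0.0020 to 0.21 with a library left out and up to 0.36 over all alternatives, and its interaction from −0.020 to 0.33 and up to 0.34. At baseline, Odc1 between genotypes was 0.016 in both limma fits, 0.11 with the replicate block and −0.27 to 0.60 with a library left out, Srm was −0.0082 and −0.0085 with limma, and Amd1 ran from −0.23 to 0.031 and Azin1 from −0.35 to 0.088. In the interaction, Sat1 ran from −0.31 to 0.030 and Azin1 from −0.18 to 0.20, and Azin1 was −0.0061 with transcripts summed. The cause of these changes was not tested.

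Counts over all genes moved more. IR in WT called 376 genes, with DESeq2 982 (490 higher) and with the block 987 (428 higher), against 234 higher of the 376, with all libraries in a single fit 631, with limma on log2(FPKM + 1) 236, and 87 to 548 with a library left out (lowest without WT baseline replicate 3, highest without WT IR replicate 1, and at most 143 when any other single library was left out). IR in libraries labelled Tet2-/- called 2078 higher and 1896 lower, with library sizes alone 2860 and 1397. Library sizes alone moved the median of all genes by 0.23 there, by 0.10 between genotypes after IR and by 0.14 in the interaction, and turned the direction of no member. Genotype at baseline called 2 genes with edgeR and 320 with DESeq2, and after IR 996 and 1655, and the interaction 1536 and 2810. With a library left out the count after IR was 294 to 942 (294, 380, 393, 535 and 650 without WT IR replicate 1 or 3 or Tet2-/- IR replicate 1, 2 or 3), and that of the interaction 697 to 2044 (lowest without Tet2-/- baseline replicate 3, highest without WT IR replicate 2). The interaction called 634 higher and 902 lower, with library sizes alone 1129 and 700, and with limma on log2(FPKM + 1) 1069 and 596. With 3 libraries a group, an uncalled difference was not shown to be absent.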
